A study of Mus musculus with 17 samples.

Results

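The heat shock proteins and their DnaJ co-chaperones were examined in RNA-seq of total RNA from mouse hearts. The genes were taken by name, as protein-coding genes whose symbol belongs to the Hspa, Hspb, Hspd, Hspe, Hsph, Hsp90, Dnaja, Dnajb or Dnajc series, with at least 10 fragments in 3 or more of 17 libraries. Of 41126 genes in the deposited tables, 69 matched by name and 64 met the minimum. The 5 that did not were Dnajb3, Dnajb8, Dnajb13, Dnajc22 and Hspb9. All mice were C57BL/6, and the hearts were collected at about zeitgeber hour 10, late in the light phase. The groups were transverse aortic constriction (TAC), surgery that narrows the aorta and loads the left ventricle with pressure, at 1 week with SR9009 (n = 4) or vehicle (n = 4), TAC at 6 weeks with SR9009 (n = 3) or vehicle (n = 3), and Control (n = 3). SR9009, given daily, activates the REV-ERB nuclear receptors, which repress genes of the circadian clock. The labels give no age or sex and no week for Control, leave unstated if sham surgery or vehicle was given to Control mice, and do not tie each replicate to its own animal. The p-values therefore measure spread among libraries, part of which may be technical, and TAC, time after surgery, age and length of dosing cannot be told apart between groups that differ in more than 1 of them.

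Heat shock proteins are molecular chaperones that keep other proteins folded. Hsp70 proteins bind and release unfolded stretches using ATP, DnaJ (Hsp40) proteins bring them their clients and trigger ATP hydrolysis, Hsp110 proteins exchange the nucleotide, Hsp90 acts late on kinases and steroid receptors, and small Hsps hold unfolding proteins without ATP. Heart muscle is rich in small Hsps, which bind the sarcomere and the cytoskeleton, while a few members, Hspa1a and Hspa1b above all, are switched on by heat shock factor 1 (HSF1) when proteins unfold. The 64 genes comprised 7 small Hsps, 3 Hsp90 genes, 3 Hsp110 genes, 10 Hsp70 genes, the 2 mitochondrial chaperonin genes, and 4 DnaJA, 10 DnaJB and 25 DnaJC genes. By the compartment in which their proteins are known to work, 30 were cytosolic, 14 of the endoplasmic reticulum (ER), 8 mitochondrial, 4 of vesicles, endosomes and Golgi, 3 nuclear and 1 ciliary, and 4 were not assigned. Cytosolic was the default for genes neither placed in another compartment nor set as not assigned. In 62 of them every library held 10 or more fragments. Dnajb7 and Dnajc6 lay just inside the minimum, with 9 of 17 libraries reaching it, and Hspb9, with 1 library, lay just outside.

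The 17 libraries held between 8.68 and 15.81 M (mega) fragments each. At 13.35 to 15.81 M, TAC 6 week vehicle was deeper than TAC 1 week vehicle (8.68 to 12.58 M) and Control (9.68 to 10.14 M), without overlap. Levels are CPM, fragments divided by the library's fragments (in M) in the genes tested, after scaling by edgeR's trimmed mean of M-values (TMM), so that 1 CPM corresponds to 8.67 to 14.7 fragments in a library. Of 8 cardiomyocyte marker genes, 7 were counted, with summed levels of 37480 to 54000 CPM over all groups, and Myh6 was not counted. The atrial markers summed to 1.17 to 4.13 CPM. A library stood apart from its group in clock genes: in TAC 6 week vehicle, Per2 was at 2.28, 58.9 and 67.2 CPM and Arntl at 42.8, 3.57 and 2.72 CPM in libraries 1, 2 and 3. In the 3 TAC 6 week SR9009 libraries Per2 was at 7.66, 9.55 and 9.21 CPM and Arntl at 41.0, 27.5 and 33.0 CPM, the levels nearest to those of that library. The labels give 1 hour of collection for all hearts, and whether library 1 of TAC 6 week vehicle was collected at that hour and carries its right label cannot be told from the files. For members, and for their partner genes at 6 weeks against Control, calls that changed without this library are given both ways. So is the count of members called in each comparison.

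The promoters of the members on which the results turn are shown first. They are the 250 bases before the annotated start, from RefSeq on GRCm38 (the mm10 assembly), written 5′ to 3′ on the gene's strand, and 52 of the 64 members had at least 1 such window in the table. Capitals mark matches to GAANNTTC, a pair of head to head heat shock units of the kind HSF1 binds, or to the ER stress element, CCAAT and CCACG with 9 bases of any kind between, each searched on both strands. Hspa1a (chr17:34972157-34972406, minus strand) and Hspa1b (chr17:34959239-34959488, minus strand) are neighbouring copies whose windows differed at 3 of 250 bases, 98.8% alike. The 3 small Hsp genes shown rose in loaded hearts, as described later. They are Hspb1 (chr5:135887669-135887918, plus strand), Hspb6 (chr7:30553051-30553300, plus strand, 1 of its 2 annotated starts) and Hspb7 (chr4:141420529-141420778, plus strand, with no match). For a gene with more than 1 annotated start, the window with the most motif matches was printed, a choice that favours matches in Hspb6.
Hspa1a: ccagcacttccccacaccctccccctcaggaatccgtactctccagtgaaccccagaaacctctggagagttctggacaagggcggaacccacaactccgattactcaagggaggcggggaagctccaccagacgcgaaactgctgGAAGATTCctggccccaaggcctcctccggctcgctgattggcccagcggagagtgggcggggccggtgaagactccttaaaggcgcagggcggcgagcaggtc
Hspa1b: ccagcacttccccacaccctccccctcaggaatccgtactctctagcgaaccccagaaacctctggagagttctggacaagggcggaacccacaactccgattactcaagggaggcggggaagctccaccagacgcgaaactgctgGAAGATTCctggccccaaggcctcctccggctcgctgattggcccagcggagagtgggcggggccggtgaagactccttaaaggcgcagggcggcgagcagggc
Hspb1: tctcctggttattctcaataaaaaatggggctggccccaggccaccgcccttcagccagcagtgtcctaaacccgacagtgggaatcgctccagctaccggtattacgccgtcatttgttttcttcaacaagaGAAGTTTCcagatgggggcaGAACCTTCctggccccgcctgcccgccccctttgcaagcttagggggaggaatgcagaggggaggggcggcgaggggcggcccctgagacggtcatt
Hspb6: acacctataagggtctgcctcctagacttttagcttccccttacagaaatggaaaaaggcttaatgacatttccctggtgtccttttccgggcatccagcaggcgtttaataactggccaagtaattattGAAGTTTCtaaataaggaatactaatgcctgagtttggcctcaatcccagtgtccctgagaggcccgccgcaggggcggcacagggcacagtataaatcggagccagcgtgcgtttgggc
Hspb7: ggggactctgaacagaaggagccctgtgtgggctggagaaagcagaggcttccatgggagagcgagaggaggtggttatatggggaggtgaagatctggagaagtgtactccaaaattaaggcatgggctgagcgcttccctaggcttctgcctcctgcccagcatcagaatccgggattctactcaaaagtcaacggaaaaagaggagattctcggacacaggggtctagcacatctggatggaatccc

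The ER chaperone genes Hspa5 (chr2:34771840-34772089, plus strand), Hsp90b1 (chr10:86705445-86705694, minus strand) and Dnajc3 (chr14:118937682-118937931, plus strand) are shown because they share the ER stress element, which Hsp90b1 carries once on each strand.
Hspa5: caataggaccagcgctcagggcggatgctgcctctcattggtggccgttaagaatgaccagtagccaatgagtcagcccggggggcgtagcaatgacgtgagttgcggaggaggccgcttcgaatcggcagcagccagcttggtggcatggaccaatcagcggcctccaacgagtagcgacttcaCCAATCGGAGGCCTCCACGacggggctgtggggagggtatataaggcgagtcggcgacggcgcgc
Hsp90b1: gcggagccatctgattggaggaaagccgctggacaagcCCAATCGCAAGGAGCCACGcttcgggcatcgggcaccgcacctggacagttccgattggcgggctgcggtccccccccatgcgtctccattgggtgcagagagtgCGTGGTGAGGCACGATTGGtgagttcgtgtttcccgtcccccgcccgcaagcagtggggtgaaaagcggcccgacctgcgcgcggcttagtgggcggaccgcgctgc
Dnajc3: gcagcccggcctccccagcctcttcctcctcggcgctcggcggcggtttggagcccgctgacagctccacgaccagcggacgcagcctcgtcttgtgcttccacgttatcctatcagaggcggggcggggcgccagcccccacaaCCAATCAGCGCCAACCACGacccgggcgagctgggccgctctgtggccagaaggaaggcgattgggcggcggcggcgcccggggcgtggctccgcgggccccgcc

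The 52 members with a window had 69 windows between them, which run on past the start beyond the bases printed. The motif GAANNTTC was present in 15 of these 69, from 13 members, and in 7.86% of all 32851 promoter windows in the table. The tail to tail pair TTCNNGAA was present in 8 of 69, from 6 members, and in 8.52% of all windows. The triplet of GAANNTTC followed by NNGAA contains both pairs. It was present in 6 of 69, from Dnajb6, Hspd1, Hspe1 and Hsph1, and in 0.603% of all windows. The ER stress element was present in 3 of 69, from the 3 ER members shown, and in 0.119% of all windows. A match describes the letters of the window and says nothing of what binds there.

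In Control hearts, members were compared by CPM per kilobase of merged exons, a scale that allows levels of different genes to be set side by side. Hspb7, a small Hsp of heart and skeletal muscle, led with 419 ± 18 CPM per kb (SD, n = 3), and Hsp90ab1, the constitutive cytosolic Hsp90, followed with 383 ± 7.8. Hspb8, which works with Bag3 in clearing misfolded proteins, had 301 ± 13. The mitochondrial Hsp70 gene Hspa9 had 222 ± 1.2 and Hspa5, which encodes the ER Hsp70 BiP, had 199.7 ± 8.3. These 5 genes held 51.03% of the summed level of all 64. On this scale Hspb6 had 158 ± 4.5, Hspa8, the constitutive cytosolic Hsp70, 136 ± 4.7, the ER Hsp90 gene Hsp90b1 128 ± 6.3, the mitochondrial chaperonin gene Hspd1 125 ± 2.4 and Dnaja2 104 ± 1.1. The means of Hspb7 and Hsp90ab1 were further apart than their SDs, whereas Hspa8 and Hsp90b1, and likewise Hsp90b1 and Hspd1, did not differ beyond their spread. At the low end, Hspa1l, Dnajb7 and Dnajc6 were under 1 CPM per kb. These SDs are over libraries and do not cover the length used for each gene, on which the order depends. Of the first 10, 8 were also among the first 10 by deposited FPKM. Hspa8, the seventh here, was the first there with 557 FPKM, above Hsp90b1 with 222 FPKM. Hsp90ab1 and Hspb7 stood in the reverse order there, at 550 and 399.5 FPKM.

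**Figure D1:**
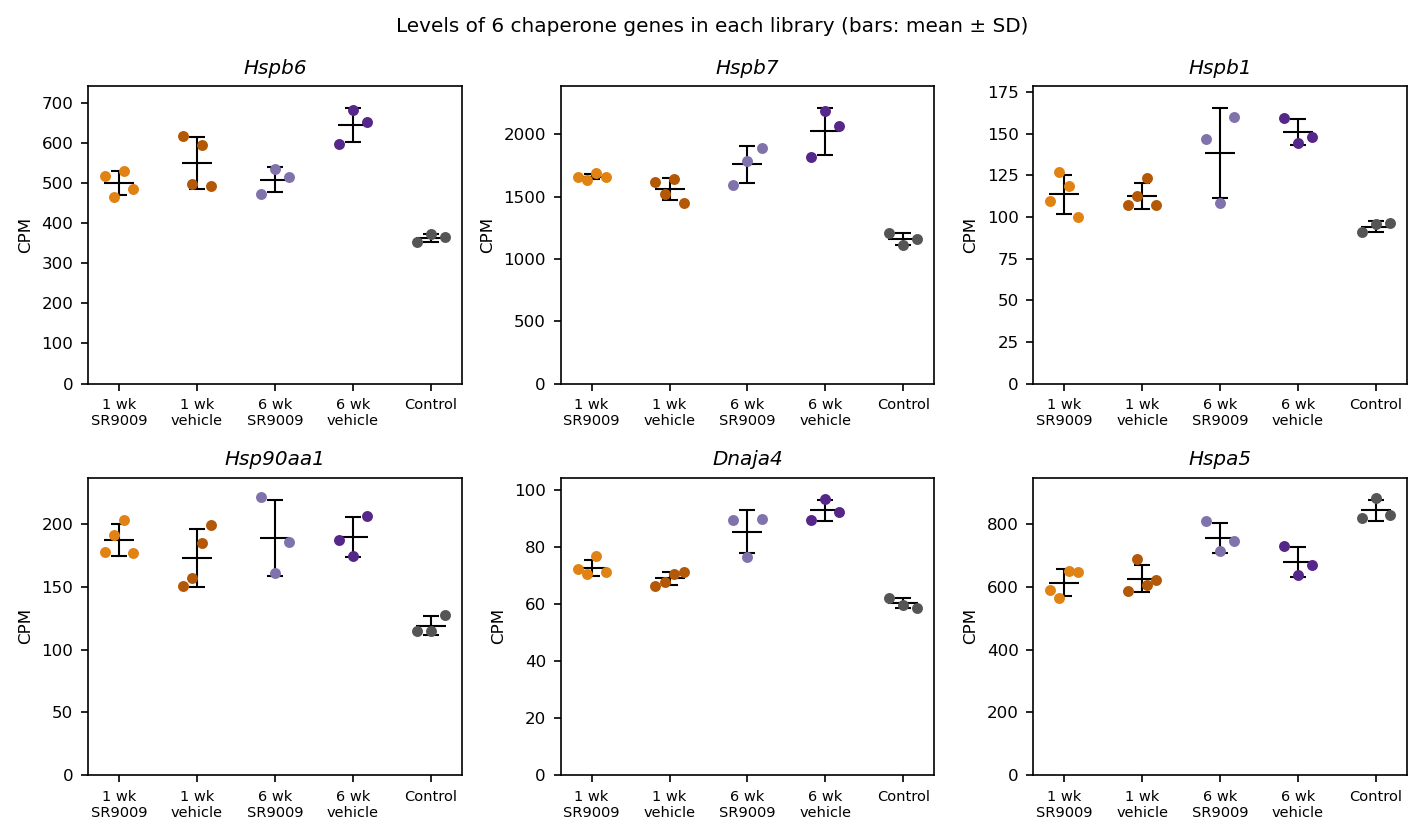
Levels of 6 chaperone genes in CPM (y axis) in the 17 libraries, grouped by week of TAC and treatment with Control on the right. Points are libraries and bars the mean ± SD. Hspb6, Hspb7, Hsp90aa1 and Dnaja4 lie above every Control library in each TAC group, and Hspa5 lies below.

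The first comparison addresses how chaperone mRNA stood 1 week after the load was applied. The small Hsp genes Hspb6 and Hspb7 and the inducible cytosolic Hsp90 gene Hsp90aa1 were higher in TAC 1 week vehicle hearts than in Control hearts, and the ER genes Hspa5, Dnajb9 and Dnajc16 were lower. By edgeR's quasi-likelihood test over 15931 genes, 5 of 64 members rose and 3 fell at a Benjamini-Hochberg adjusted p under 0.05. Of all genes tested, 14.8% passed, 8.91% higher and 5.92% lower, so the members' share of 12.5% was near the background. The median log2 fold change was 0.009 over the members and -0.004 over all genes.

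Hspb6, also called Hsp20, is a small Hsp of muscle linked to actin and relaxation. It measured 617, 497, 595 and 491 CPM in TAC 1 week vehicle hearts, against 352, 372 and 366 CPM in Control hearts. All TAC libraries lay above all Control libraries, and the log2 fold change was 0.60 ± 0.08 (SE), adjusted p = 0.000799. Hspb7 measured 1617, 1519, 1644 and 1453 CPM in TAC 1 week vehicle hearts, against 1207, 1110 and 1162 CPM in Control hearts. Here too the groups did not overlap, with a log2 fold change of 0.43 ± 0.07 and adjusted p = 0.00211. The other 5 small Hsps did not pass: Hspb1 (Hsp25) had a log2 fold change of 0.26 ± 0.11 with adjusted p = 0.113, and Hspb8 one of 0.02 ± 0.06 with adjusted p = 0.846.

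Hsp90aa1, the inducible cytosolic Hsp90, measured 151, 157, 185 and 199 CPM in TAC 1 week vehicle hearts, against 115, 115 and 128 CPM in Control hearts. It was higher in 4 of 4 TAC libraries than in any Control library, with a log2 fold change of 0.54 ± 0.11 and adjusted p = 0.00442. Its constitutive partner Hsp90ab1 averaged 1125 ± 55 CPM in TAC 1 week vehicle hearts and 1149 ± 23 CPM in Control hearts (SD, n = 4 and n = 3), with overlapping groups. Hspa4l, an Hsp110, and Dnaja4, a cytosolic DnaJ of muscle and other tissues, rose by smaller amounts, 0.24 ± 0.06 and 0.20 ± 0.06 on the log2 scale. Hspa1l, Hspa1a and Hspa1b had larger estimates of 0.68, 1.42 and 1.15 with wide errors (SE 0.31, 0.54 and 0.57) and did not pass, at adjusted p = 0.144, 0.081 and 0.180.

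All 3 members that fell belong to the ER. Hspa5 measured 589, 690.1, 608 and 623 CPM in TAC 1 week vehicle hearts, against 819, 885 and 830.3 CPM in Control hearts. Every TAC library lay below every Control library, and the log2 fold change was -0.43 ± 0.07, adjusted p = 0.00181. Dnajb9 (ERdj4), a BiP co-chaperone in ER-associated degradation, fell by 0.29 ± 0.08 and Dnajc16 by 0.26 ± 0.07. The other 11 of 14 ER members did not pass. Among them Hsp90b1 (Grp94) had a log2 fold change of -0.15 ± 0.05 with adjusted p = 0.0674 (0.0181 by DESeq2), and Dnajc3, the PERK inhibitor p58IPK, one of 0.01 ± 0.07. The 3 promoters that share the ER stress element thus belonged to 1 gene that fell and 2 that did not pass. The 8 mitochondrial members had a median log2 fold change of -0.053, and 0 passed by edgeR or by DESeq2. At an unadjusted p under 0.05 there was 1 of the 8, against 31.1% of all genes.

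Hspb6, Hspb7, Hsp90aa1 and Hspa5 passed with each of the 7 libraries left out in turn. Dnaja4 did not pass without Control 1, 2 or 3 (adjusted p = 0.0727, 0.125 and 0.135) or without TAC library 3 or 4 (0.106 and 0.114). For Hspa4l the adjusted p without the same libraries was 0.0597, 0.0515, 0.0961, 0.0532 and 0.0742. Dnajb9 did not pass without Control 2 or 3 (0.116 and 0.0855) or TAC library 1 or 4 (0.0805 and 0.0851), nor Dnajc16 without Control 1 or 2 (0.0516 and 0.0523) or TAC library 4 (0.0613). When only the 7 libraries of these groups were fitted, 19 members passed, against 24.1% of the genes tested there, Hspa1a among them with adjusted p = 0.00424, and with no count filter Hspa1a also passed (adjusted p = 0.0288). The labels give tissue and not cells, so fewer cells of a type and less RNA per cell cannot be told apart. The 7 cardiomyocyte markers counted summed to 41160 to 48750 CPM in TAC 1 week vehicle hearts and 49780 to 51180 CPM in Control hearts. The 5 fibroblast markers summed to 932 to 1150.0 CPM in TAC 1 week vehicle hearts and 821 to 861 CPM in Control hearts, and the 5 endothelial markers to 1118 to 1249 CPM in TAC 1 week vehicle hearts and 1007 to 1088 CPM in Control hearts. The 6 macrophage markers summed to 263 to 329 CPM in TAC 1 week vehicle hearts and 172 to 187 CPM in Control hearts. The 3 markers of dividing cells summed to 138 to 412 CPM in TAC 1 week vehicle hearts and 33.0 to 39.9 CPM in Control hearts, with no marker of these lists at 0. Single markers did not all follow these sums: by edgeR, Tnnt2 and Pln passed as lower and Actc1 as higher. Of the fibroblast markers 2 of 5 passed as higher, and of the endothelial markers 2 of 5. The 6 macrophage markers and the 3 of dividing cells all passed as higher. The part of these marker shifts in the chaperone results was not tested.

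At 6 weeks the same comparison gave 17 members higher and 3 lower in TAC 6 week vehicle hearts, 31.2% of the members, with 20.7% of all genes passing, 10.7% higher and 9.96% lower. Most of those that rose were cytosolic: of 30 cytosolic members 13 rose and 1 fell, with a median log2 fold change of 0.227, and over all genes the median was -0.010. Of the small Hsps 4 of 7 rose, of the Hsp110 genes 2 of 3, of the Hsp70 genes 2 of 10, of the Hsp90 genes 1 of 3 and of the DnaJ genes 8 of 39. Both TAC groups are set against the same 3 Control libraries, so values at 1 and 6 weeks are given side by side only.

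Among small Hsps, Hspb6 measured 598, 681 and 653 CPM in TAC 6 week vehicle hearts and the 352 to 372 CPM given before in Control hearts. Its log2 fold change was 0.83 ± 0.09 (adjusted p = 1.6e-05). Hspb7 measured 1820, 2185 and 2070 CPM in TAC 6 week vehicle hearts, against 1207, 1110 and 1162 CPM in Control hearts, with 0.80 ± 0.08 (adjusted p = 8.2e-06). For both genes the lowest TAC library was well above the highest Control library. Hspb1, which guards actin filaments and is an HSF1 target, measured 159.5, 145 and 148 CPM in TAC 6 week vehicle hearts, against 90.7, 95.5 and 96.5 CPM in Control hearts (log2 fold change 0.68 ± 0.11, adjusted p = 0.000644). Hspb8 averaged 776 ± 40.4 CPM in TAC 6 week vehicle hearts and 588 ± 26 CPM in Control hearts, 0.40 ± 0.07 on the log2 scale. Hspb2, Hspb3 and Hspb11 did not pass, with log2 fold changes of -0.09, 0.15 and -0.28. Hspb11, an intraflagellar transport protein of cilia, is a small Hsp by name. Cryab, the αB-crystallin gene and the small Hsp of heart that lies outside the naming rule, also rose, by 0.44 ± 0.08, with 1357 ± 47 CPM in TAC 6 week vehicle hearts and 998 ± 53 CPM in Control hearts.

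Hsp90aa1 measured 187, 175 and 207 CPM in TAC 6 week vehicle hearts, against 115, 115 and 128 CPM in Control hearts, a log2 fold change of 0.67 ± 0.11 (adjusted p = 0.00077). Hsp90ab1 (0.12 ± 0.09) and Hsp90b1 (-0.07 ± 0.06) did not pass. The Hsp110 genes Hspa4l and Hspa4, nucleotide exchange factors of cytosolic Hsp70, rose by 0.44 ± 0.07 and 0.34 ± 0.06, and Hsph1 did not pass (0.08 ± 0.14). Hspa8 rose to 662, 753 and 818 CPM in TAC 6 week vehicle hearts, against 571, 608 and 575 CPM in Control hearts, with 0.35 ± 0.09 and adjusted p = 0.00984. The groups did not overlap, but the call did not hold without TAC library 3, where the log2 fold change was 0.28 and adjusted p = 0.0614. Hspa1l, an Hsp70 known best from testis, had 5.14, 7.54 and 5.71 CPM in TAC 6 week vehicle hearts, against 2.81, 2.50 and 1.97 CPM in Control hearts. These levels rest on 70, 95 and 84 fragments in TAC 6 week vehicle hearts and 27, 25 and 19 fragments in Control hearts, with a log2 fold change of 1.33 ± 0.31 and adjusted p = 0.00581.

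Hspa5 was again lower, with 730.2, 638 and 672 CPM in TAC 6 week vehicle hearts and 819, 885 and 830.3 CPM in Control hearts (log2 fold change -0.31 ± 0.08, adjusted p = 0.00982). The call did not hold without Control 2 (-0.28, adjusted p = 0.0507) or TAC library 2 (-0.27, adjusted p = 0.0551). Hspa12a, an atypical member of the Hsp70 family, fell by 0.49 ± 0.14, but not without Control 1 or 2 (adjusted p = 0.0648 and 0.0502) or TAC library 2 or 3 (0.0895 and 0.0611). Dnajc6, an auxilin that uncoats clathrin vesicles, is chiefly neuronal. It had 8, 3 and 6 fragments in TAC 6 week vehicle hearts, against 12, 16 and 20 fragments in Control hearts, so its fall of 1.95 ± 0.38 on the log2 scale rests on few fragments. Of the 14 ER members, Hspa5 fell, Dnajc14 rose and 12 did not pass. Dnajb9 had a log2 fold change of 0.06 ± 0.09 and Dnajc3 one of 0.20 ± 0.08 with adjusted p = 0.0658.

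Among DnaJ genes, Dnaja4 measured 89.5, 97.0 and 92.4 CPM in TAC 6 week vehicle hearts, against 62.3, 59.9 and 58.7 CPM in Control hearts (0.62 ± 0.06, adjusted p = 1.01e-05). Dnajc11, a mitochondrial outer membrane protein tied to cristae structure, measured 104, 113 and 111 CPM in TAC 6 week vehicle hearts, against 76.6, 74.5 and 75.5 CPM in Control hearts (0.53 ± 0.05, adjusted p = 9.29e-06). The other 7 mitochondrial members did not pass, and Hspa9, Hspd1 and Hspe1, the core of matrix folding, had log2 fold changes of 0.09, -0.04 and -0.03. Dnajc2 (MPP11), which sits on the ribosome, rose by 0.54 ± 0.08. Dnajb6, a suppressor of aggregation located at the Z-disc in muscle, rose by 0.33 ± 0.07. Dnajb4 measured 182, 314 and 323 CPM in TAC 6 week vehicle hearts, against 174, 154 and 163 CPM in Control hearts. Library 1 lay just above the highest Control library while the other 2 lay far above it, and the log2 fold change was 0.74 ± 0.15 with all libraries (adjusted p = 0.00264) and 0.96 ± 0.09 without library 1 (adjusted p = 1.55e-06). Dnajc27, Dnajc14 and Dnajc8 rose by 0.33, 0.26 and 0.22.

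**Figure D2:**
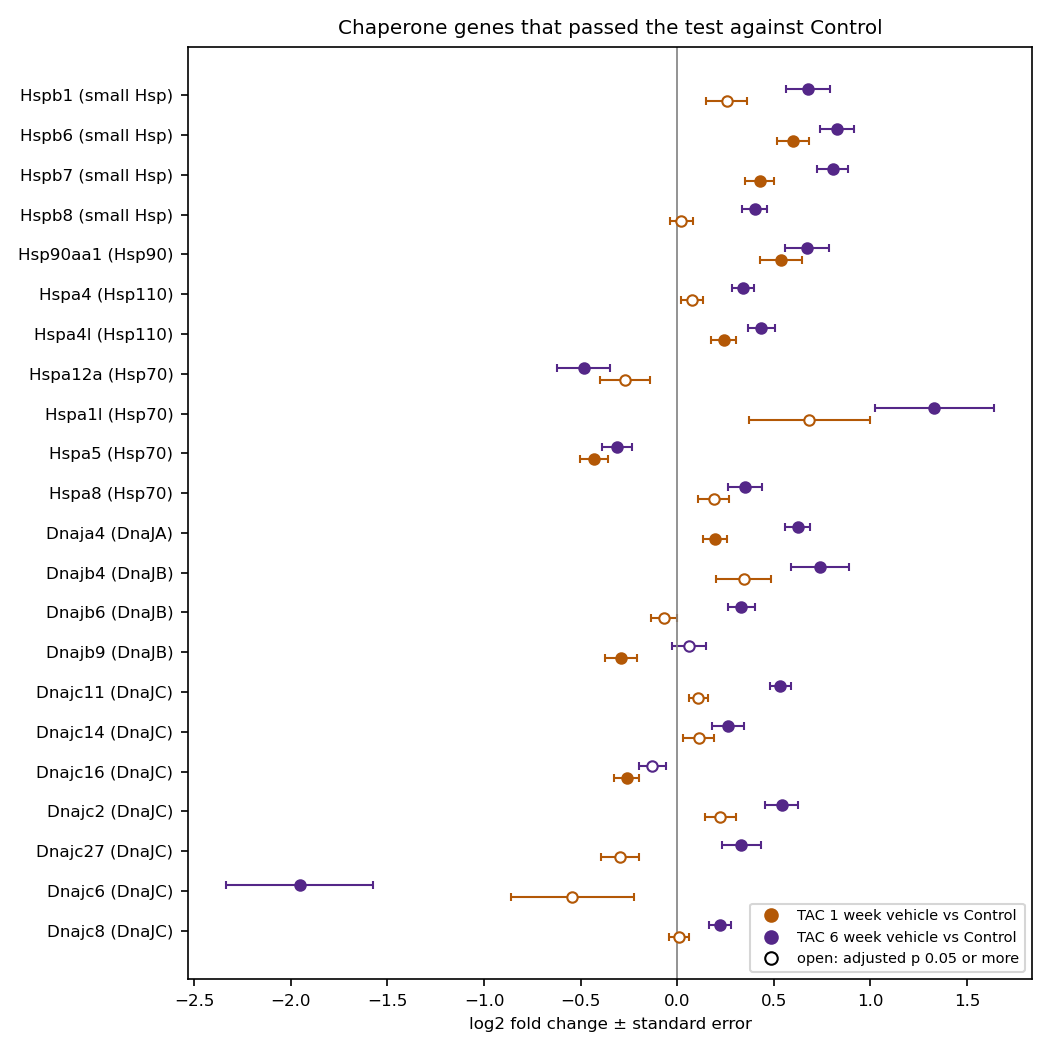
Log2 fold change ± standard error (x axis) against Control in TAC vehicle hearts at 1 week (orange) and 6 weeks (purple) for the 22 members that passed at either time, by family. Filled points passed. Hspb6 and Hspb7 pass at both times with 0.60 and 0.43 at 1 week and 0.83 and 0.80 at 6 weeks, and Hspa5 lies below 0 at both.

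Depth and group cannot be fully told apart at 6 weeks, since the library totals of TAC 6 week vehicle and Control do not overlap. With the log2 library total added as a covariate, the standard errors of the 20 called members grew by a median of 1.448 times and 5 members passed, against 1.48% of all genes. These were Hspb6, Hspb7, Dnaja4, Dnajc2 and Dnajc11. All 20 kept their sign, and their log2 fold changes were 0.51 to 1.23 times those without the covariate, with a median of 0.85. Of the values that did not pass, Hspb8 (0.39), Dnajb6 (0.37) and Hspa5 (-0.35) stayed near those given above, while Hsp90aa1 (0.37), Hspa8 (0.20) and Hspa12a (-0.25) were smaller. Without TAC 6 week vehicle library 1, 25 members passed, where 25.2% of all genes passed, with Dnajb5, Dnajc21, Dnajc3, Hspa12b and Hspa13 added. Dnajc14 did not pass without Control 1 or 2 (adjusted p = 0.139 and 0.067) or TAC library 2 or 3 (0.151 and 0.104). Dnajc27 did not pass without Control 1 or 3 (0.101 and 0.107) or TAC library 2 or 3 (0.0694 and 0.0813), nor Dnajc8 without Control 3 (0.0546). Fibroblast markers, 5 of 5 measured, summed to 1063 to 1415 CPM in TAC 6 week vehicle hearts and 821 to 861 CPM in Control hearts. Macrophage markers summed to 253 to 291 CPM in TAC 6 week vehicle hearts and 172 to 187 CPM in Control hearts, and 4 of 4 mesothelium markers to 12.1 to 17.7 CPM in TAC 6 week vehicle hearts and 49.5 to 60.9 CPM in Control hearts, with no marker at 0. By edgeR with all libraries, 2 of 5 fibroblast and 5 of 6 macrophage markers passed as higher. Of the mesothelium markers 3 of 4 passed as lower and Wt1 did not pass. The part of these markers in the chaperone results was not tested.

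The next question was how the members differed between 6 weeks and 1 week of TAC, which was asked with each treatment in libraries of its own. With SR9009, 5 members were higher at 6 weeks and 0 lower, where 8.95% of all genes passed, 3.29% higher and 5.66% lower. With vehicle, 15 members were higher at 6 weeks and 2 lower, where 12.1% of all genes passed, 6.18% higher and 5.9% lower. Dnajc27, Hspb8, Dnaja4 and Dnajc11 were higher at 6 weeks with both treatments, which is 80.0% of the SR9009 list and 26.67% of the vehicle list. All 15 members higher with vehicle had a log2 fold change above 0 with SR9009. Over all 64, 48 had the same sign with both treatments (75.0%), against 62.29% of all genes tested.

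Dnajc27, a small GTPase with a J domain, gave the largest rise of the 5. With SR9009 it measured 33.9, 27.9 and 28.4 CPM at 6 weeks, against 19.5, 17.5, 21.8 and 21.4 CPM at 1 week, a log2 fold change of 0.58 ± 0.09 and adjusted p = 0.00213. With vehicle it measured 30.6, 31.1 and 31.8 CPM at 6 weeks, against 19.8, 22.2, 20.7 and 18.1 CPM at 1 week, with 0.63 ± 0.09 and adjusted p = 0.000897. In both treatments the weeks did not overlap, and Dnajc27 was called with each library of the SR9009 comparison left out in turn. Hspb8 averaged 697 ± 50.2 CPM at 6 weeks and 581 ± 7.4 CPM at 1 week with SR9009 (SD, n = 3 and n = 4), with a log2 fold change of 0.26 ± 0.06 and adjusted p = 0.0142. With vehicle it averaged 776 ± 40.4 CPM at 6 weeks and 597 ± 27 CPM at 1 week, with 0.38 ± 0.06 and adjusted p = 0.00122. Dnaja4 rose by 0.23 ± 0.06 with SR9009 and 0.43 ± 0.06 with vehicle, and Dnajc11 by 0.21 ± 0.05 and 0.43 ± 0.05.

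Hspa5 was called with SR9009 alone, at 757 ± 48 CPM at 6 weeks and 614 ± 43 CPM at 1 week (0.30 ± 0.07, adjusted p = 0.0176). With vehicle it averaged 679.9 ± 47 CPM at 6 weeks and 627 ± 44 CPM at 1 week (0.12 ± 0.07, adjusted p = 0.331). The difference between both treatments in this change was itself tested as an interaction, and 0 of 64 members passed, so Hspa5 is not shown to differ. Members called with vehicle alone included Hspb1 (0.42 ± 0.10), Hspb7 (0.38 ± 0.07), Dnajb6 (0.40 ± 0.07), Dnajc12 (0.51 ± 0.13), Dnajc25 (0.44 ± 0.11), Dnajb9 (0.35 ± 0.08) and Hspa4 (0.26 ± 0.05). The 2 that fell with vehicle were Dnajc6 and Dnajb1, the main heat-inducible DnaJ partner of Hsp70. Dnajb1 measured 20.8, 29.8 and 39.4 CPM at 6 weeks, against 34.1, 49.3, 53.4 and 52.9 CPM at 1 week. The groups overlapped, and the fall of 0.66 ± 0.20 (adjusted p = 0.0431) was not called without TAC 1 week library 2, 3 or 4 (adjusted p = 0.0727, 0.110 and 0.0989) or TAC 6 week library 1 or 2 (0.134 and 0.111).

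Markers of other cells also separated the weeks. With SR9009, the 3 markers of dividing cells summed to 23.4 to 43.2 CPM at 6 weeks and 141 to 403 CPM at 1 week, the 6 macrophage markers to 198 to 222 CPM at 6 weeks and 273 to 424 CPM at 1 week, and the 4 mesothelium markers to 9.55 to 22.2 CPM at 6 weeks and 27.4 to 44.0 CPM at 1 week. With vehicle, dividing cell markers summed to 46.3 to 80.0 CPM at 6 weeks and 138 to 412 CPM at 1 week, and mesothelium markers to 12.1 to 17.7 CPM at 6 weeks and 38.5 to 49.4 CPM at 1 week. By edgeR the 3 markers of dividing cells and 3 of 4 mesothelium markers passed as lower at 6 weeks with each treatment. With SR9009, 5 of 6 macrophage markers did. The part of these markers in these results was not tested.

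**Figure D3:**
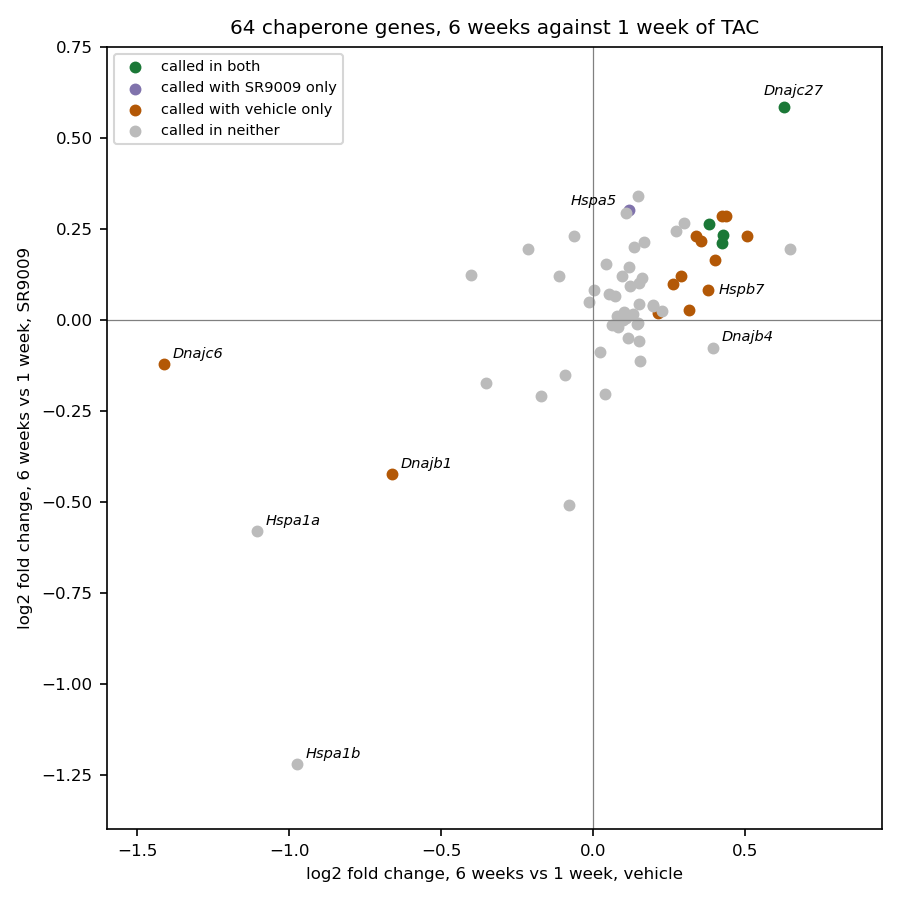
Log2 fold change between 6 weeks and 1 week of TAC with vehicle (x axis) and with SR9009 (y axis) for the 64 members, coloured by the comparison in which each passed. Dnajc27, at 0.63 and 0.58, stands at the upper right, and the 3 other green points are Hspb8, Dnaja4 and Dnajc11.

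Some of these calls did not hold without a single library. With SR9009, Hspa5 did not pass without TAC 1 week library 1 (adjusted p = 0.0528) or TAC 6 week library 1 or 3 (0.0991 and 0.0515), Hspb8 without TAC 6 week library 1 or 3 (0.0779 and 0.0639), Dnajc11 without library 1 of either week (0.0525 and 0.0906 at 1 and 6 weeks), and Dnaja4 without TAC 1 week library 1 or 2 (0.0542 and 0.0566) or TAC 6 week library 1 or 3 (0.108 and 0.109). With vehicle and the library total as a covariate, 1 member passed, Dnajc11, against 0.534% of all genes. Standard errors grew by a median of 1.583 times, all 17 kept their sign, and the log2 fold changes were 0.55 to 1.34 times those without the covariate, with a median of 0.97. Without TAC 6 week vehicle library 1, 19 members passed with vehicle, where 16.3% of all genes passed. Dnajb4 (0.62 ± 0.08, adjusted p = 0.000119), Dnajc3 (0.26 ± 0.07, adjusted p = 0.0240) and Hspb6 (0.28 ± 0.09, adjusted p = 0.0423) were added, and Dnajb1 was lost. Without TAC 6 week vehicle library 3, 11 members passed with vehicle, a fit for which the share of all genes is not given here. Calls lost there were Dnaja2 (adjusted p = 0.103), Dnajb9 (0.0911), Dnajc12 (0.105), Dnajc2 (0.0607), Dnajc25 (0.0809), Dnajc6 (0.090) and Dnajc8 (0.0567). Dnajc6 also did not pass without TAC 1 week vehicle library 1 (0.0715), and without TAC 6 week vehicle library 2 the calls of Dnajc2, Dnajc25 and Dnajc6 were lost (adjusted p = 0.0788, 0.0555 and 0.0978).

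SR9009 was then compared with vehicle at each week. At 1 week, 0 of 64 members passed edgeR's quasi-likelihood test, 0 had an unadjusted p under 0.05 (6.4% of all genes did) and 0 passed the DESeq2 Wald test, where 0% of all genes passed edgeR and 0.0565% passed DESeq2. The members' log2 fold changes ran from -0.36 to 0.32. The median of Hspb7 was 1658 CPM with SR9009 and 1568 CPM with vehicle, and Hspa5 averaged 614 ± 43 CPM with SR9009 and 627 ± 44 CPM with vehicle (SD, n = 4 each).

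At 6 weeks, 0 of 64 members passed with all libraries, where 0.169% of all genes passed. At an unadjusted p under 0.05 there were 10 members (15.7% of all genes), and the DESeq2 Wald test called 1, Hspb6 (log2 fold change -0.35, adjusted p = 0.0152), where 1.63% of all genes passed. Hspb6 measured 473, 534 and 516 CPM with SR9009, against 598, 681 and 653 CPM with vehicle. All SR9009 libraries lay below all vehicle libraries, and edgeR gave -0.34 ± 0.09 with adjusted p = 0.110. Library 1 of TAC 6 week vehicle decides the count. Without it 9.2% of all genes passed, 5.03% lower and 4.17% higher with SR9009. The 7 of 64 members that passed were near that share. Those lower were Dnajb4 (-0.58 ± 0.09, adjusted p = 0.000529), Hspb6 (-0.39 ± 0.09, adjusted p = 0.0147), Hspa12b, the endothelial member of the Hspa12 pair (-0.35 ± 0.09, adjusted p = 0.0182), Dnajb6 (-0.29 ± 0.06, adjusted p = 0.00341), Hspb7 (-0.27 ± 0.08, adjusted p = 0.0368) and Dnajc11 (-0.22 ± 0.06, adjusted p = 0.0239). Hspa12a was higher, by 0.50 ± 0.15 (adjusted p = 0.0425). At 6 weeks the 7 cardiomyocyte markers counted summed to 51960 to 54000 CPM with SR9009 and 45310 to 50610 CPM with vehicle, and the 6 macrophage markers to 198 to 222 CPM with SR9009 and 253 to 291 CPM with vehicle. By edgeR with all libraries, 0 markers of either list passed. The part of these markers in the chaperone values was not tested.

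Dnajb4 shows what that library does to a value. It measured 224, 209 and 208 CPM with SR9009 at 6 weeks, against 182, 314 and 323 CPM with vehicle. The SR9009 values lay between vehicle library 1 and the other pair, and with all libraries the log2 fold change was -0.35 ± 0.15 (adjusted p = 0.261). The interaction, the SR9009 effect at 6 weeks minus that at 1 week, called 0 of 64 members by edgeR with all libraries and 0 by DESeq2, with 11 at an unadjusted p under 0.05 (14.2% of all genes), where 0.119% of all genes passed edgeR and 1.12% passed DESeq2. Without library 1 it called 4 of 64, Dnajb4 (-0.69 ± 0.11), Dnajc2 (-0.37 ± 0.10), Hspb7 (-0.37 ± 0.10) and Dnajb6 (-0.33 ± 0.07). That share was near the 5.94% of all genes that passed there. What the calls made without library 1 mean depends on the doubt about that library's hour and label given above, and the part of its clock difference in the chaperone values was not tested.

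**Figure D4:**
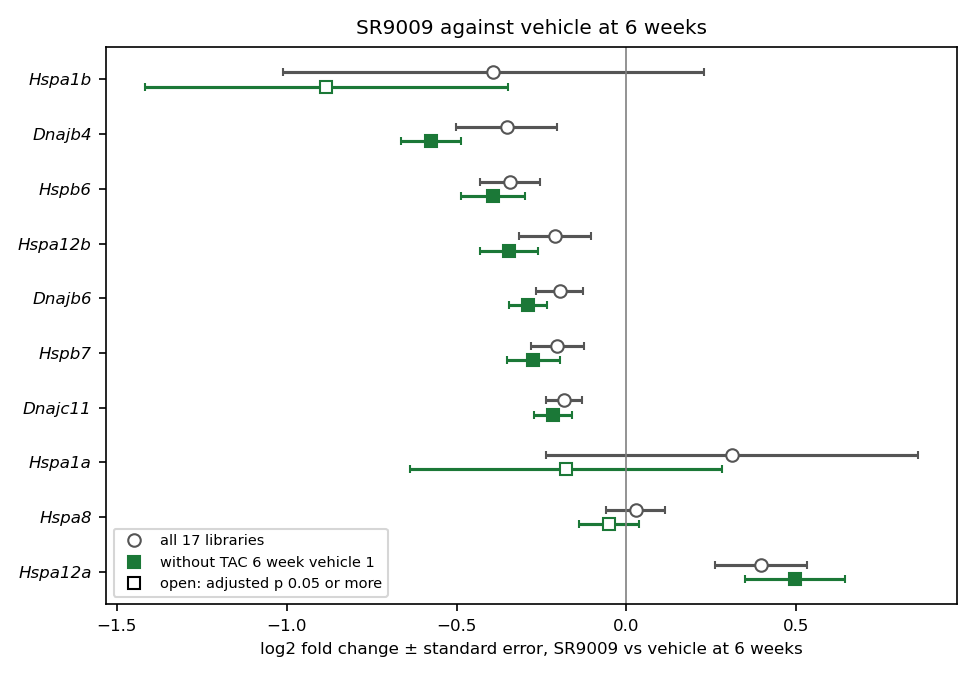
Log2 fold change ± standard error (x axis) of TAC 6 week SR9009 against TAC 6 week vehicle for 10 members, with all 17 libraries (circles) and without TAC 6 week vehicle library 1 (squares). Filled symbols passed. No circle is filled, and 7 squares are, with Dnajb4 at -0.58 and Hspa12a at 0.50.

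The heat-inducible members spread widely between libraries of 1 group. Hspa1a measured 11.3, 5.30, 12.9 and 10.9 CPM in TAC 1 week SR9009 hearts, 6.58, 12.4, 13.5 and 13.8 CPM in TAC 1 week vehicle hearts, 11.7, 5.32 and 3.22 CPM in TAC 6 week SR9009 hearts, 1.03, 6.19 and 8.91 CPM in TAC 6 week vehicle hearts and 5.31, 2.30 and 5.49 CPM in Control hearts. Every TAC 1 week vehicle library was above every Control library, whereas at 6 weeks both groups overlapped Control. Because the mature sequences of Hspa1a and Hspa1b are alike over most of their length, their fragments may be divided between them, so their sum is also given. Summed, they reached 20.2 to 25.8 CPM in 3 TAC 1 week SR9009 libraries and 12.2 CPM in library 2. In TAC 1 week vehicle they reached 23.5 to 28.7 CPM in 3 libraries and 12.0 CPM in library 1, in TAC 6 week SR9009 19.5, 8.79 and 5.68 CPM, in TAC 6 week vehicle 2.13, 11.1 and 20.5 CPM, and in Control 13.2, 4.20 and 11.6 CPM. Dnajb1 was also lowest in the lowest of these libraries within each group except TAC 6 week SR9009, as with 20.8 CPM in TAC 6 week vehicle library 1 and 28.4 CPM in Control 2. Per2 was at 29.0, 18.1 and 28.5 CPM and Arntl at 8.53, 16.3 and 8.59 CPM in Control 1, 2 and 3. The part of these clock genes in the spread of the inducible members was not tested.

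Of 10 members known as HSF1 targets, Hsp90aa1 alone passed as higher at 1 week of TAC against Control with all 17 libraries fitted. At 6 weeks Hspb1, Hsp90aa1 and Hspa8 passed as higher. Over all genes, 8.91% were called higher at 1 week and 10.7% at 6 weeks. The medians over the list were 0.268 and 0.127 on the log2 scale, against -0.004 and -0.010 over all genes. No other target in the list passed against Control in this fit, Hspa1a, Hspa1b, Hsph1, Dnaja1 and Dnajb1 included. The 1 week result depended on the fit. With only the groups compared, Hspa1a (1.42), Hspa1b (1.15), Hspb1 (0.26) and Hspa8 (0.19) also passed as higher, where 13.7% of the genes tested were higher. HSF1 itself averaged 24.4 ± 2.0 CPM in TAC 1 week vehicle, 23.6 ± 0.92 CPM in TAC 6 week vehicle and 23.9 ± 0.59 CPM in Control hearts, with log2 fold changes of 0.03 ± 0.09 at 1 week and -0.02 ± 0.10 at 6 weeks that did not pass. The 4 members whose promoters hold the triplet of heat shock units had log2 fold changes at 6 weeks against Control of 0.33 (Dnajb6, which rose), -0.04 (Hspd1), -0.03 (Hspe1) and 0.08 (Hsph1). Hsp90aa1 and Hspa8 had no promoter window, so neither could be searched for the triplet.

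**Figure D5:**
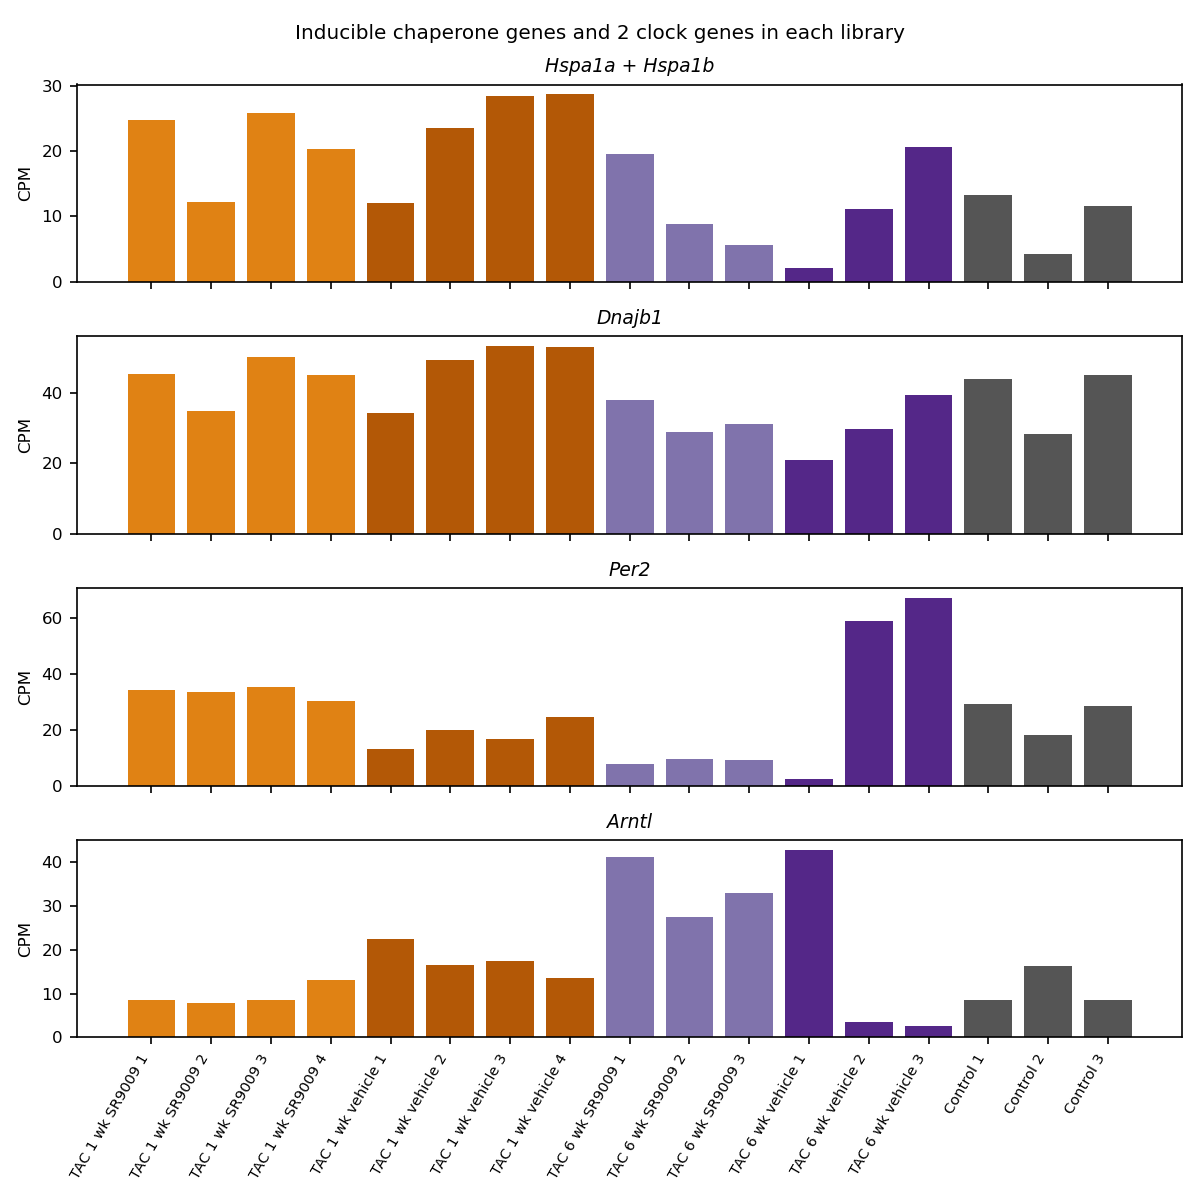
CPM (y axes) of Hspa1a and Hspa1b summed, Dnajb1, Per2 and Arntl in each of the 17 libraries (x axis), coloured by group, with Control on the right. The first library of TAC 6 week vehicle has 2.13 CPM of Hspa1a and Hspa1b and 2.28 CPM of Per2, and 42.8 CPM of Arntl.

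The partners of the chaperones were read from lists taken by function. Their counts stand beside the 14.8% of all genes that passed at 1 week against Control and the 20.7% at 6 weeks, and shares such as 1 of 13, 1 of 18 and 3 of 18 lie at or below these. Of 13 regulators and exchange factors of Hsp70, 1 passed at 1 week against Control and 6 at 6 weeks. Hyou1, the ER member of the Hsp110 family and an exchange factor for BiP, fell at both times, to 70.5 ± 1.8 CPM in TAC 1 week vehicle and 66.3 ± 1.7 CPM in TAC 6 week vehicle hearts, against 88.1 ± 3.9 CPM in Control hearts (log2 fold changes -0.32 and -0.41, adjusted p = 0.00196 and 0.000217). Its direction was that of Hspa5. At 6 weeks Bag2, St13 (Hip), Grpel2 and Grpel1 rose, by 0.55, 0.30, 0.46 and 0.19, and the ubiquitin ligase gene Stub1 (CHIP) fell by 0.28. Of 18 Hsp90 co-chaperones, Ppid rose at 1 week (0.24) and Fkbp5, Ppid and Sugt1 at 6 weeks. Unc45b was lower at 6 weeks (-0.41) and passed only without TAC 6 week vehicle library 1. Fkbp5, a glucocorticoid-induced co-chaperone of steroid receptors, measured 19.5, 78.5 and 93.7 CPM in TAC 6 week vehicle hearts, against 13.7, 17.9 and 19.6 CPM in Control hearts, so library 1 lay within the Control range. Its log2 fold change was 1.91 ± 0.37 (adjusted p = 0.00203) with all libraries and 2.34 ± 0.18 (adjusted p = 2.94e-07) without library 1.

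Of 14 subunits of the cytosolic chaperonin TRiC and of prefoldin, which fold actin and tubulin, Pfdn1 and Cct2 rose at 1 week and 6 rose at 6 weeks, led by Pfdn1 (0.43), Cct8 (0.33) and Cct3 (0.29). The list median was 0.093 at 1 week and 0.200 at 6 weeks. Cct4 (0.25) and Cct5 (0.24) were added at 6 weeks without TAC 6 week vehicle library 1, where 25.2% of all genes passed. Of 13 genes of mitochondrial quality control, the protease gene Spg7 and the mitochondrial Hsp90 gene Trap1 fell at 1 week, by 0.33 and 0.25. At 6 weeks Afg3l2 and Lonp1 rose by 0.30 and 0.22 and Clpx fell by 0.28, the last not without TAC 6 week vehicle library 1 (adjusted p = 0.0667). Of 18 genes of ER folding and the unfolded protein response, Serpinh1, the collagen chaperone Hsp47 (0.68), Edem1 (0.62) and Atf4 (0.38) rose at 1 week and the lectin chaperone gene Canx fell by 0.32. At 6 weeks Atf4 (0.58), Atf6 (0.40) and Edem1 (0.45) rose, and Herpud1 (0.36) was added without TAC 6 week vehicle library 1. Of the cold-inducible RNA-binding proteins Cirbp and Rbm3, Cirbp fell at 1 week by 0.81, at 28.2 ± 4.6 CPM in TAC 1 week vehicle hearts and 49.4 ± 3.5 CPM in Control hearts, and neither passed at 6 weeks.

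Some of these genes share sequence with other genes, so their fragments may have been assigned in part to copies. Of the 50-base stretches of the longest transcript, those also found in another gene made up 71.4% for Hspa1l, 66.3% for Hspa1a, 62.3% for Hspa1b, 58.5% for Hsp90aa1, 52.7% for Hspa8, 51.9% for Dnaja4, where they lie in the neighbouring gene Wdr61, 51.6% for Hspb1, 44.8% for Hspd1 and 42.8% for Dnajb6. These shares do not measure error in the counts, and how far the values of these members are affected was not tested. For Hspb6 the share was 5.2%, and for Dnajb4 0%.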

How the data were processed

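RNA-seq of 17 mouse heart libraries in 5 groups was analysed from 1 deposited table per library. The authors deposited estimated counts (raw fragments per gene), FPKM, and scaled fragment columns, a signal not used here, per the file headers. Per the submitters' processing notes the genome build is mm10. Aligner, counter and gene annotation: not given in the sources used here. The library kit does not mark strand. Estimated counts were rounded (2289 to 2678 values per library were not whole), and 78 genes with failed estimates for high depth in a library were left out. Libraries held 8.68 to 15.81 M fragments, and CPM used each library's fragments in the tested genes times its TMM factor (8.67 to 14.7 M). In edgeR 4.0.16 (R 4.3.3), filterByExpr kept 15931 genes and removed 25117. TMM scaling and a quasi-likelihood fit over all 5 groups were used (common dispersion 0.0106, 12 residual degrees of freedom, default prior count). A prior count of 2 entered only log2 levels, such as those behind the correlations of deviations. The p-values were adjusted by Benjamini and Hochberg over all genes at 0.05. Each standard error of a log2 fold change was its absolute value over the square root of the quasi-likelihood F. It therefore holds no information beyond the fold change and the test. The tests were tested on simulated data. Alternatives were DESeq2 1.42.0, its size factors, no filter, a replicate block, the library total as covariate, fits of only the groups compared, and libraries left out. Exon lengths and 50-base stretches came from GENCODE vM21, which held 40252 of the gene IDs and not the other 874. Tables and figures were made in Python 3.11.15 with pandas 2.3.3 and matplotlib 3.10.9. The text names up to 10 members per direction and comparison at a mean of 5 CPM or more, with up to 4 genes per partner list. Members beyond that rule, Dnajc6, Dnajc8, Dnajc14 and the uncalled ones among them, were chosen after their values were seen. The members and lists were chosen with earlier results of these data known.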

Additional observations from a re-analysis of the deposited data

Results flagged for a closer look

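In 8 of 128 groups of 4 libraries, 1 library stood far from the other 3 by Dixon's criterion, and chance alone gives about 1 in 20 such groups. Of these, 5 concerned TAC 1 week SR9009 library 2. There Dnaja1 was low at 105.6 CPM (the others 121.5 to 123.5), Hspa12a low at 38.64 CPM (57.7 to 58.05) and Dnajc6 low at 0.5725 CPM (0.934 to 1.008), while Dnajc3 was high at 130.0 CPM (113.4 to 116.1) and Hspa13 high at 47.59 CPM (39.92 to 41.1). In TAC 1 week vehicle, Dnajc13 was high in library 3 at 128.9 CPM (125.4 to 125.6), Dnajc6 high in library 1 at 1.615 CPM (0.917 to 1.021) and Hspa8 high in library 4 at 706.9 CPM (646.4 to 655.9). Dnajc13 moved in opposite directions with SR9009 at the 2 weeks, all libraries above vehicle at 1 week and all below at 6 weeks, and the difference was -0.11 ± 0.06 on the log2 scale with adjusted p = 0.441 by edgeR.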

How the results depend on the processing

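Among 50 called values of single members, DESeq2's size factors and the DESeq2 Wald test each kept 50, no count filter 46, the replicate block 44, only the groups compared 43, and the library total as a covariate 19; all 50 kept their sign in each. The member counts depended on settings as follows. For TAC 1 week vehicle against Control the count was 8, and 19 with only the groups compared, with 4 to 10 when a library was left out. For TAC 6 week vehicle against Control it was 20, and 5 with the covariate, with 16 to 25 when a library was left out. For 6 weeks against 1 week it was 5 with SR9009, and 3 with no filter and 1 with only the groups compared (1 to 7 when a library was left out), and 17 with vehicle, and 1 with the covariate (11 to 19 when a library was left out). For SR9009 against vehicle at 6 weeks it was 0, and 1 with no filter and 1 by DESeq2 (0 to 7 when a library was left out), and for the interaction 0 (0 to 4). At 1 week SR9009 against vehicle stayed at 0 under all these settings. Library 2 of Control, library 2 of TAC 1 week SR9009 and library 1 of TAC 6 week vehicle were also left out together, chosen with earlier results known. Each was its group's lowest library in summed Hspa1a and Hspa1b, at 4.196, 12.16 and 2.131 CPM, and in Dnajb1. Then 26 members passed for 6 weeks against 1 week with vehicle (20.9% of all genes), 9 for SR9009 at 6 weeks (13.5%) and 7 for the interaction (6.61%). Against Control, 10 passed at 1 week, with 6 of 8 calls kept, and 26 at 6 weeks. For 6 weeks against 1 week with SR9009 the count was 7, and for SR9009 at 1 week 0. Replicate numbers are not said to pair libraries, and the main test did not pair them. Of 31 same-numbered pairs 1 had a correlation of deviations over 0.1 (range -0.445 to 0.264). The median correlation was 0.018 with the same number and -0.004 with another, and 8 of 17 libraries correlated best with their own number. These values do not settle if the numbers pair libraries. With the replicate block the counts were 6, 18, 16, 0, 0, 4 and 0 for TAC against Control at 1 and 6 weeks, 6 weeks against 1 week with vehicle, SR9009 at 1 and 6 weeks, 6 weeks against 1 week with SR9009, and the interaction. The cause of these shifts was not tested, other than that fewer libraries or genes enter some fits. Where no share of all genes stands beside a count, it is not shown if members alone or all genes changed. Depth limits members of few fragments, such as Dnajc6 with 3 to 20 per library.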
